A study of Homo sapiens with 18 samples.

Results

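The genes examined are those of NF-kB signalling and of the cytokines and chemokines tied to it. A list of 45 gene symbols gave the members, of which 40 have a row among the 25296 genes of the deposited table and 38 were among the 18226 genes tested. CXCL10 and CXCL12 had a row but lay under the low-count filter, and CCL5, CXCL1, CXCL2, CXCL11 and VCAM1 were not analysed for expression here. Of these, CXCL1, CXCL2, CXCL11 and VCAM1 entered the promoter search. The members fall into 6 roles: NF-kB subunits, the IkB family, feedback regulators of the pathway, cytokines, chemokines and other known targets. The list was drawn up from what is known of the pathway and with earlier results of these data in view.

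The members were followed in U2OS, an established human osteosarcoma line, in which the series asked how mutant DNMT3A affects the response to cytarabine. DNMT3A is a DNA methyltransferase, and cytarabine is a nucleoside drug that stalls DNA synthesis once incorporated. All cells carried the retroviral vector MigR1. In the EV line it was empty, in the WT line it held wild-type DNMT3A and in the MUT line mutant DNMT3A, an amino acid change that the series text and the sample labels name differently. Each line was grown untreated, which the series text calls vehicle, or with 10 µM cytarabine for 24 h. This gave 6 groups of 3 biological replicates. The cells keep their own DNMT3A. Whether each line was a clone or a pool is not given in the sources used here.

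NF-kB is a family of dimeric transcription factors made from RELA, RELB, REL and the products of NFKB1 and NFKB2. In resting cells IkB proteins such as NFKBIA hold the dimers in the cytoplasm, until the IKK kinase marks IkB for destruction and the dimers move to the nucleus. Among their targets are the pathway's own inhibitors and subunits, so that NFKBIA, TNFAIP3 and BIRC3 transcripts serve as widely used readouts of NF-kB activity. Other targets are secreted cytokines and chemokines, which in tumour cells call in immune cells and act back on the cells that make them. Breaks in DNA can also reach the pathway, through the kinase ATM and the regulatory subunit of IKK.

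Library totals ran from 15.4 to 21.9 M estimated counts. DNMT3A, which pools the cells' own and the introduced transcript, read 26.2 to 49.6 CPM in EV, 129 to 182 CPM in WT and 254 to 615 CPM in MUT. All WT and MUT libraries thus lay above EV. The labels name the construct and not its level, and MUT read higher than WT. The part of this difference in DNMT3A level in the results was not tested. CPM are counts scaled to a library size of 1000000 after TMM. The TMM factors ran from 0.862 to 0.961 in untreated and from 1.04 to 1.11 in treated libraries. Small changes with cytarabine therefore depend on this scaling. Replicates of untreated MUT stood apart from each other, with a biological coefficient of variation of 0.216. In treated EV it was 0.132, and in the other groups it lay between 0.0397 and 0.0694. Among markers listed for the osteoblast lineage and osteosarcoma, RUNX2 read 29.6 to 53.2 CPM and COL1A1 60.8 to 294 CPM, while BGLAP reached at most 0.437 CPM and SPP1 at most 1.35 CPM. The summed level of the 7 markers of this lineage with a row was 2186 to 2793 CPM untreated and 1280 to 1557 CPM treated. Most of that sum was VIM, a gene of mesenchymal cells in general, with a mean of 1641 CPM. The 6 leukocyte markers with a row summed to 2.40 to 5.49 CPM, with CD14 and SPI1 each at 0 in at least 1 library. CD68, ITGAM and PTPRC were read in every library, at 1.28 to 3.48, 0.435 to 1.65 and 0.171 to 1.41 CPM. The 5 endothelial markers summed to 2.28 to 4.91 CPM untreated and 5.66 to 12.6 CPM treated, with PECAM1 and KDR at 0 in at least 1 library. CDH5, VWF and TEK were read in every library, at 0.294 to 6.37, 0.385 to 4.17 and 0.451 to 2.38 CPM. The part of these shifts in the results was not tested. In RNA from whole cultures, fewer cells that make a transcript and less of it per cell cannot be told apart.

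More of the listed genes fell than rose with cytarabine. In EV 29 of 38 tested members passed an adjusted p of 0.05 in edgeR's quasi-likelihood test with Benjamini-Hochberg adjustment over all genes, 10 higher and 19 lower, against 49.1% of all genes called (26.1% higher, 22.9% lower). In WT 22 members passed, 6 higher and 16 lower, where 49.0% of all genes were called (26.3% higher, 22.7% lower). In MUT 27 members passed, 8 higher and 19 lower, where 56.3% of all genes were called (30.4% higher, 25.9% lower). As shares, 76.3%, 57.9% and 71.1% of the tested members were called. The median log2 fold change of the members was -0.23 in EV, -0.22 in WT and -0.33 in MUT, beside 0.051, 0.026 and 0.054 over all genes. Called with a change of more than 1 on the log2 scale were 13, 8 and 10 members, or 34.2%, 21.1% and 26.3%, beside 12.1%, 12.6% and 16.3% of all genes.

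Called lower in all 3 lines were 16 members, and called higher in all 3 were 4, against 16.4% and 18.9% of all tested genes. The 16 were NFKB1, RELA and RELB among the subunits, NFKBIA, NFKBIB and NFKBIE, all 5 feedback regulators (TNFAIP3, TNIP1, TRAF1, TRAF2 and BIRC3), the cytokine IL32, the chemokines CCL2 and CCL4, and the targets SOD2 and PTX3. The 4 were the cytokines IL1A, IL11 and CSF1 and the prostaglandin synthase PTGS2. A further 12 members were called in 1 or 2 lines, 6 in none, and none was called higher in 1 line and lower in another. Of the 16, 12 kept a call in all 3 lines in each of the 24 alternative fits, as did the 4 that rose in each fit that tested them. CCL2, IL32, RELA and SOD2 lost a call in at least 1 line in 5, 6, 2 and 4 of those fits.

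**Figure D1:**
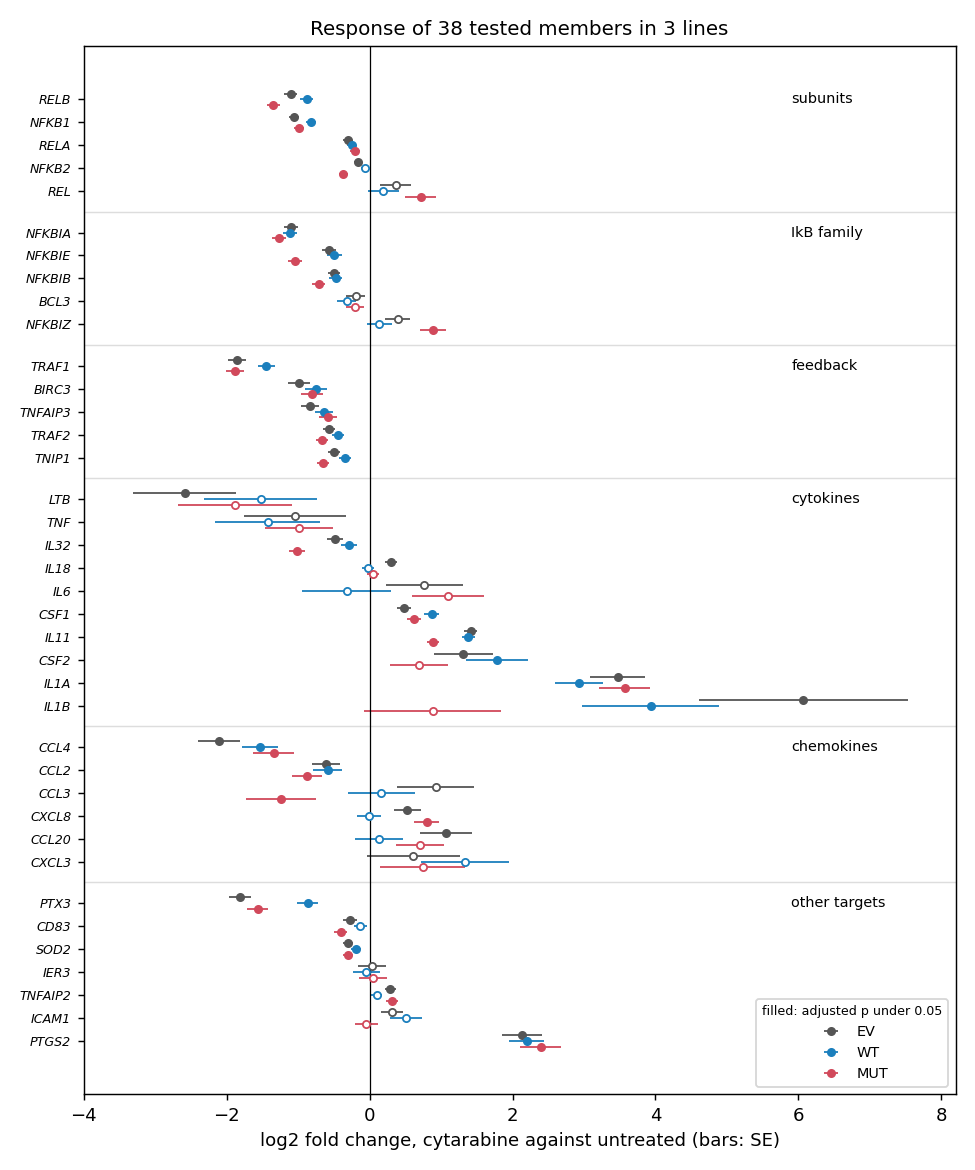
Log2 fold change of each tested member between cytarabine-treated and untreated cells (horizontal axis, bars are the SE) in EV, WT and MUT, with members grouped by role and filled points marking an adjusted p under 0.05. Most subunits, IkB genes and feedback regulators lie left of 0, and IL1A, IL11, CSF1 and PTGS2 lie right of it in all 3 lines. The values of IL1B are fitted against groups with 0 to 2 counts per library and give no size.

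The sequence that NF-kB binds was searched for in the promoters of the members. The list was drawn from known NF-kB genes, so a high share is in part how it was chosen. RefSeq windows of GRCh38.p14, taken over the 250 bases before the start site, matched 37 of the 45 members. The kB consensus was taken as GGGRNWYYCC, where R is A or G, N any base, W A or T and Y C or T. Searched on both strands with overlapping matches kept, it was present in 17 of the 37 windows (45.9%), beside 5.05% of all 27305 windows. Among the 17 are CXCL1, CXCL2, CXCL10, CXCL11 and VCAM1, which were not tested for expression. The consensus was present in 6 of 12 windows of members that fell in 3 lines. It was present in 0 of 3 of those that rose in 3 lines, and in 6 of 16 of the other tested members. No window was available for RELB, NFKBIE, CCL2 and CCL4 among those that fell, or for CSF1 among those that rose. The AP-1 site TGANTCA, also searched on both strands, was present in 4 of the 37 windows (10.8%) and in 6.60% of all. It was present in 0 of the 12 and in 2 of the 3, those of IL1A and IL11. The lines that follow show 4 members that fell, with the kB match in capitals, then IL11 with its AP-1 site in capitals. PTGS2, shown last, rose and had no match to either pattern. The counts above used all 250 bases of each window. Among members that fell, the kB matches of TNFAIP3 and IL32 lie within the gene's span in the deposited table. Those of REL, LTB, IL6, CCL20 and CXCL3, among the other tested members, do so too. The windows printed here are cut where they reach that span. In order they lie at chr14:35404751-35404999 (minus strand), chr4:102501109-102501328 (plus), chr11:102317234-102317449 (plus), chr3:157436600-157436788 (plus), chr19:55370465-55370713 (minus) and chr1:186680429-186680673 (minus).
NFKBIA: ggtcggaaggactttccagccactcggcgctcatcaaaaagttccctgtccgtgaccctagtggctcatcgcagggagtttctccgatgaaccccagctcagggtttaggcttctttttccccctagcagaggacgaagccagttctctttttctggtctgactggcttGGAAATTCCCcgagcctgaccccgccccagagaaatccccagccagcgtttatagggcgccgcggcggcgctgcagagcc
NFKB1: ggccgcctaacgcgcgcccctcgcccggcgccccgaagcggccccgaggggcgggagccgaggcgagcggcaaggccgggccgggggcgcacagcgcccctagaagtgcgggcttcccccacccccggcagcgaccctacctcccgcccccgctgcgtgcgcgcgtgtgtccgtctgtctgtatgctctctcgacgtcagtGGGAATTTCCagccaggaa
BIRC3: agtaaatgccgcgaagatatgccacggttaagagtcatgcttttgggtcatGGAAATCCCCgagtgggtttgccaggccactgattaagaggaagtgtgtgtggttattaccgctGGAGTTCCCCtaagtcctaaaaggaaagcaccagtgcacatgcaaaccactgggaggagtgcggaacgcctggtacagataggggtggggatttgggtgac
PTX3: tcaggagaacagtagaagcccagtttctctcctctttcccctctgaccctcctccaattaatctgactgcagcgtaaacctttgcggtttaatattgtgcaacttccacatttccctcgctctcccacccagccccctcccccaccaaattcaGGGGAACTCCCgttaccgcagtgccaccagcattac
IL11: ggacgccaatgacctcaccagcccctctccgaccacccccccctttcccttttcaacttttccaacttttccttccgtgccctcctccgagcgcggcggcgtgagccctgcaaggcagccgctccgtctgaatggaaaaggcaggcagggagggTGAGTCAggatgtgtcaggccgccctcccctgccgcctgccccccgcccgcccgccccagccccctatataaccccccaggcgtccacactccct
PTGS2: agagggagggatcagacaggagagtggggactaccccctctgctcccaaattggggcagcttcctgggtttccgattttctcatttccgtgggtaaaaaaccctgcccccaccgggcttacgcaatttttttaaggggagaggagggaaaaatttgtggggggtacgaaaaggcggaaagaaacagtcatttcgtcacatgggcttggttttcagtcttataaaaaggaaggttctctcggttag
The match begins 81 bases before the RefSeq start in NFKBIA and 49 bases before it in NFKB1. BIRC3 has matches at 199 and 135 bases, both read on the opposite strand, and the capitals in PTX3 hold overlapping matches at 97 and 96 bases. The AP-1 site of IL11 begins 96 bases before the start. TRAF1, whose fall was the largest of the 5 feedback regulators, had no match in its window. A match is a run of letters and shows no binding, and a window without a match may hold a site that departs from the pattern.

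Of the 5 subunits, NFKB1 and RELB fell the most in each line and RELA fell less. REL was called lower in none. NFKB1 (chromosome 4, 102501329 to 102617303, plus strand) encodes the precursor of a DNA-binding subunit without an activation domain. It read 111, 103 and 105 CPM in the untreated EV libraries and 46.7, 52.4 and 54.5 CPM in the treated ones. For NFKB1 the WT libraries went from 107, 98.4 and 103 to 56.4, 60.6 and 58.5 CPM and the MUT libraries from 111, 120.3 and 110.1 to 54.1, 60.8 and 56.8 CPM. Every treated library lay below every untreated one. The log2 fold changes of NFKB1 for EV, WT and MUT were -1.05, -0.81 and -0.99 (SE 0.0708, 0.0701 and 0.0701), with adjusted p of 1.1e-09, 2.1e-08 and 1.1e-09 in edgeR, by the same test and adjustment as above and for all adjusted p that follow.

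RELB (chromosome 19, 45001430 to 45038199, plus strand) is the subunit of the noncanonical branch, where it pairs with the product of NFKB2. Its level was 45.4, 45.9 and 46.9 CPM in untreated and 21.2, 23.2 and 20.0 CPM in treated EV. For RELB the WT values were 41.4, 37.7 and 37.7 and then 19.6, 24.4 and 19.5 CPM, and the MUT values 46.6, 51.6 and 57.6 and then 20.0, 20.8 and 20.3 CPM. The 9 treated libraries met at a like level, and the untreated MUT libraries reached the highest values but overlapped with EV. RELB changed by -1.11, -0.88 and -1.35 (SE 0.0933, 0.0931 and 0.0927; edgeR adjusted p 1.7e-08, 2.8e-07 and 7.8e-10). RELA (chromosome 11, 65653596 to 65663095, minus strand), the subunit with the main activation domain, fell less. Mean RELA was 148 ± 2.57 CPM in EV without and 119.6 ± 5.32 CPM with treatment (SD, n = 3), 143 ± 5.62 and 120.2 ± 4.76 CPM in WT, and 134 ± 7.67 and 116 ± 7.33 CPM in MUT. The untreated and treated RELA libraries did not overlap in any line, and the log2 fold changes were -0.31, -0.25 and -0.20. Without treated MUT replicate 1 the MUT value of RELA was -0.16 with an edgeR adjusted p of 0.0741, and in a fit of only the MUT groups that p was 0.0850.

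NFKB2 (chromosome 10, 102394110 to 102402530, plus strand), the precursor for the noncanonical branch, changed less than RELB in every line. Its mean moved from 166 ± 3.34 to 148 ± 2.55 CPM for EV, 153 ± 2.98 to 146 ± 5.67 CPM for WT and 169.7 ± 13.2 to 131 ± 3.12 CPM for MUT (SD, n = 3). The log2 fold changes of NFKB2 were -0.16, -0.065 and -0.37, past the threshold in EV and MUT (edgeR adjusted p 0.0339, 0.396 and 4.4e-05). The EV call was lost when any 1 of the 6 EV libraries was left out, with edgeR adjusted p between 0.0529 and 0.1003, and when genes with a mean under 50 counts were left out (0.136 in edgeR). REL (chromosome 2, 60881521 to 60931611, plus strand), the subunit best known from lymphocytes, read 25.7, 27.0 and 10.9 CPM in untreated and 37.3, 35.6 and 31.4 CPM in treated MUT. Untreated MUT replicate 3 was low in REL. The MUT value was 0.71 (SE 0.214, edgeR adjusted p 0.00806), and without that library it was 0.37 (edgeR adjusted p 0.0250). In a fit of only the MUT groups the edgeR adjusted p of REL was 0.0680. In EV and WT the values of 0.37 and 0.19 did not pass. The EV value of REL passed without untreated MUT replicate 3 and with only the EV groups (edgeR adjusted p 0.0165 and 0.0329). The 3′ part of REL overlaps a non-coding gene on the same strand, with a mean of 78.6 counts beside 518 for REL.

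Within a library the ratio of 2 counts does not depend on the scaling. NFKB1 over NFKB2 went from 0.641 ± 0.0350 to 0.346 ± 0.0287 in EV (mean ± SD, n = 3), from 0.671 ± 0.0280 to 0.400 ± 0.00432 in WT and from 0.676 ± 0.0884 to 0.436 ± 0.0359 in MUT. RELB over RELA went from 0.312 ± 0.00518 to 0.180 ± 0.0195, from 0.272 ± 0.00744 to 0.176 ± 0.0165 and from 0.387 ± 0.0375 to 0.175 ± 0.0106. NFKBIA, the main inhibitor, over RELA, the subunit it binds, went from 0.283 ± 0.0187 to 0.164 ± 0.0282, from 0.278 ± 0.0110 to 0.152 ± 0.00989 and from 0.389 ± 0.0188 to 0.187 ± 0.0314. The treated and untreated libraries of a line did not overlap in any of these ratios. Each ratio compares a pair of genes and gives no level of either.

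**Figure D2:**
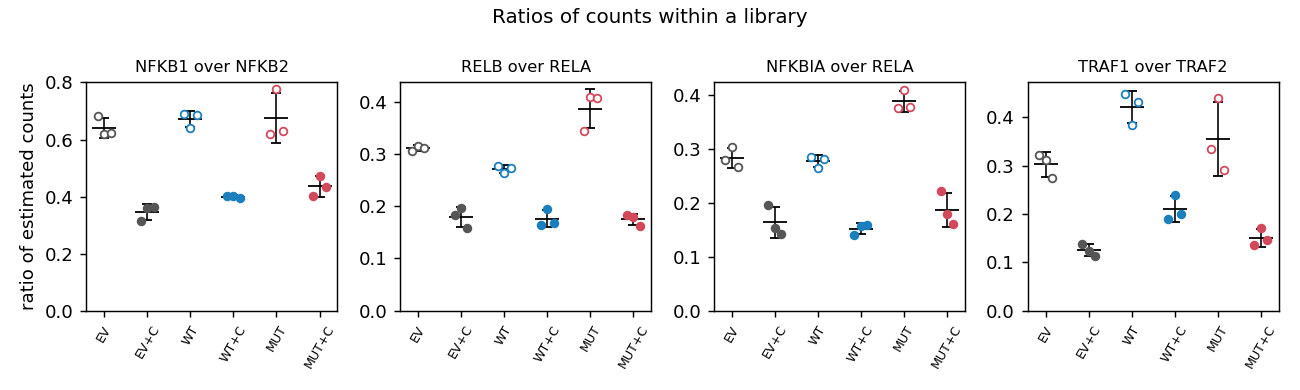
Ratio of estimated counts of 2 genes within each library (vertical axes, no unit) for the 6 groups, with points for libraries and bars for the mean ± SD (n = 3). All 4 ratios are lower in the treated libraries (+C) of each line, with NFKB1 over NFKB2 at 0.641 in untreated and 0.346 in treated EV.

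Among the IkB family, the classical inhibitors fell, and the nuclear members were not called lower. NFKBIA (chromosome 14, 35401511 to 35404750, minus strand), which holds RELA dimers in the cytoplasm and whose promoter is shown above, read 41.4, 44.1 and 40.1 CPM in untreated and 22.7, 17.9 and 17.96 CPM in treated EV. For NFKBIA the WT libraries gave 42.5, 37.9 and 38.8 and then 16.8, 19.7 and 18.4 CPM, and the MUT libraries 51.1, 51.7 and 53.4 and then 24.3, 20.7 and 19.9 CPM. Treated libraries had at most 24.3 CPM and untreated ones at least 37.9 CPM. NFKBIA changed by -1.098, -1.12 and -1.27 (SE 0.0977, 0.0977 and 0.0958; edgeR adjusted p 3.1e-08, 2.4e-08 and 2.5e-09). NFKBIE (chromosome 6, 44258166 to 44265789, minus strand), a related inhibitor, went from 43.6 ± 2.02 to 29.4 ± 2.29 CPM for EV, 33.8 ± 2.16 to 24.0 ± 1.88 CPM for WT and 52.3 ± 9.05 to 25.3 ± 0.931 CPM for MUT. These NFKBIE levels correspond to log2 fold changes of -0.57, -0.49 and -1.05 (edgeR adjusted p 1.2e-04, 5.5e-04 and 5.9e-08). NFKBIB (chromosome 19, 38899700 to 38908894, plus strand) changed by -0.50, -0.48 and -0.71 (edgeR adjusted p 9.9e-05, 1.5e-04 and 1.0e-06), from untreated means of 69.4, 64.8 and 77.2 CPM to treated means of 49.2, 46.6 and 47.1 CPM. It shares 164 bases with SIRT2 on the opposite strand, and whether counting used strand is not given in the sources used here.

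NFKBIZ and BCL3 encode nuclear IkB proteins that work with DNA-bound dimers. NFKBIZ (chromosome 3, 101827991 to 101861023, plus strand) read 11.7, 6.73 and 10.2 CPM in untreated and 14.0, 20.2 and 19.2 CPM in treated MUT, a change of 0.89 (SE 0.186, edgeR adjusted p 4.6e-04). Its untreated level was lowest in MUT, where replicate 2 was the lowest library, and highest in WT. In EV and WT the NFKBIZ libraries overlapped between treatments and the values of 0.39 and 0.14 did not pass (edgeR adjusted p 0.0810 and 0.542). The EV value of NFKBIZ passed without untreated EV replicate 3, treated EV replicate 2 or untreated MUT replicate 2 (edgeR adjusted p 0.0475, 0.0213 and 0.0374) and when genes averaging under 50 counts were left out (0.0435 in edgeR). BCL3 (chromosome 19, 44747705 to 44760045, plus strand) had group means between 16.2 and 24.0 CPM and log2 fold changes of -0.19, -0.32 and -0.20, none past the threshold. In WT the BCL3 value passed on the authors' scaling and when the WT groups were fitted alone (edgeR adjusted p 0.0260 and 0.00251). It also passed in WT in 7 of the 18 fits that left out 1 library, and in MUT without untreated replicate 2 or treated replicate 1 (edgeR adjusted p 0.0476 and 0.0311).

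The 5 feedback regulators were lower with cytarabine in every line. TRAF1 (chromosome 9, 120902393 to 120929174, minus strand), an adaptor of tumour necrosis factor receptors and a known NF-kB target, gave 28.4, 27.8 and 24.1 CPM in untreated and 7.77, 7.24 and 7.23 CPM in treated EV. For TRAF1 the WT libraries held 33.0, 27.5 and 30.0 and then 9.60, 13.2 and 10.5 CPM, and the MUT libraries 28.8, 36.7 and 32.1 and then 8.04, 9.62 and 8.72 CPM. The lowest untreated library held 24.1 CPM and the highest treated one 13.2 CPM. TRAF1 changed by -1.85, -1.45 and -1.89 (SE 0.127, 0.121 and 0.123; edgeR adjusted p 1.4e-09, 1.4e-08 and 4.0e-10). TRAF2 (chromosome 9, 136881912 to 136926608, plus strand), its more widely expressed partner, fell less, with log2 fold changes of -0.57, -0.44 and -0.67, from means of 88.5, 71.5 and 93.3 to 59.6, 52.8 and 58.6 CPM. The ratio of TRAF1 to TRAF2 counts went from 0.302 ± 0.0252 to 0.125 ± 0.0123 in EV, from 0.421 ± 0.0339 to 0.210 ± 0.0270 in WT and from 0.355 ± 0.0774 to 0.150 ± 0.0180 in MUT.

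BIRC3 (chromosome 11, 102317450 to 102339404, plus strand) encodes a ubiquitin ligase that inhibits cell death at the same receptors. Its EV libraries read 31.5, 31.5 and 35.3 CPM untreated and 14.96, 16.3 and 18.3 CPM treated. For BIRC3 the WT values were 34.1, 24.1 and 26.8 and then 14.0, 18.7 and 17.99 CPM, and the MUT values 33.6, 24.6 and 28.3 and then 15.3, 20.1 and 14.3 CPM. The 3 lines met at about the same treated level. BIRC3 changed by -0.99, -0.75 and -0.80 (SE 0.152, 0.151 and 0.151; edgeR adjusted p 2.4e-05, 4.0e-04 and 1.6e-04). TNFAIP3 (chromosome 6, 137867188 to 137883313, plus strand), the ubiquitin-editing enzyme that ends signalling, went from 20.7, 23.7 and 22.9 to 12.4, 12.4 and 13 CPM in EV. For TNFAIP3 the WT libraries went from 23.0, 20.8 and 20.6 to 12.7, 15.2 and 13.4 CPM and the MUT libraries from 25.5, 21.4 and 16.8 to 13.8, 15.9 and 13.1 CPM. Untreated MUT was the most spread of these groups, yet its lowest library stayed above the highest treated one. TNFAIP3 changed by -0.83, -0.64 and -0.58 (edgeR adjusted p 2.0e-05, 2.5e-04 and 5.3e-04). TNIP1 (chromosome 5, 151029945 to 151093578, minus strand), which binds TNFAIP3, changed by -0.49, -0.35 and -0.65 (edgeR adjusted p 8.8e-05, 0.00207 and 2.5e-06), with treated means of 95.1, 97.6 and 101 CPM.

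**Figure D3:**
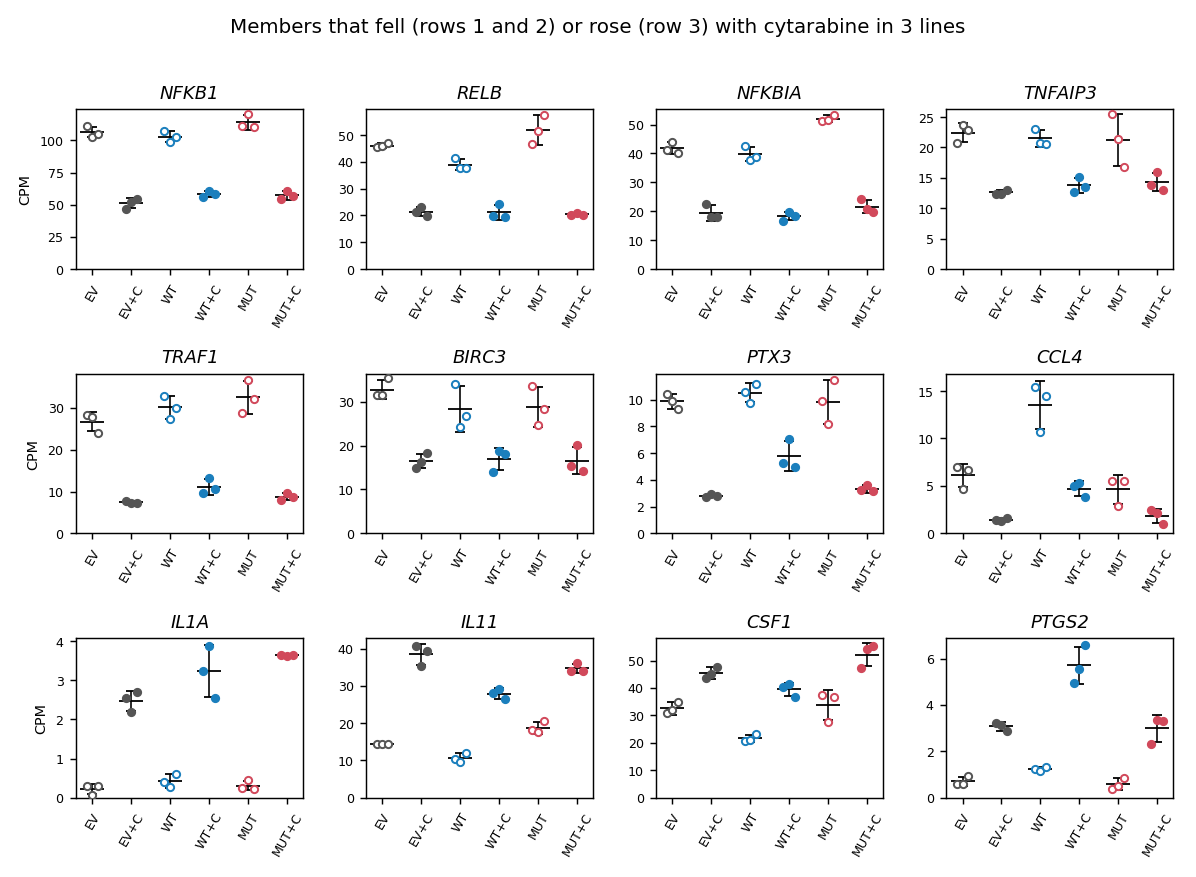
CPM in each library (points) with the mean ± SD of the 3 replicates (bars) for 8 members that fell and 4 that rose in all 3 lines, by group, with +C marking cytarabine. Treated and untreated libraries of a line do not overlap in any panel, as for NFKB1 in EV with 103 to 111 CPM against 46.7 to 54.5 CPM.

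Of the 10 cytokines tested, IL1A, IL11 and CSF1 rose in all lines, IL32 fell in all, and the rest were called in some lines or none. IL1A (chromosome 2, 112773915 to 112784591, minus strand), an alarm cytokine of the interleukin 1 family, read 0.292, 0.0584 and 0.307 CPM in untreated and 2.54, 2.18 and 2.69 CPM in treated EV. For IL1A the WT libraries went from 0.392, 0.265 and 0.605 to 3.25, 3.89 and 2.56 CPM and the MUT libraries from 0.251, 0.440 and 0.228 to 3.65, 3.64 and 3.66 CPM. The untreated libraries reached at most 0.605 CPM and the treated ones held at least 2.18 CPM. IL1A changed by 3.47, 2.93 and 3.57 (SE 0.385, 0.334 and 0.353; edgeR adjusted p 5.0e-07, 7.0e-07 and 8.0e-08). Untreated libraries held at most 5, 11 and 7 IL1A counts in EV, WT and MUT, so the size of these changes is uncertain. The neighbouring IL1B (chromosome 2, 112829751 to 112836904, minus strand), the other main cytokine of that family, was barely detected. Its counts were 0, 0 and 0 in untreated and 12, 4 and 10 in treated EV, 2, 0 and 0 and 18, 9 and 11 in WT, and 1, 2 and 2 and 10, 1 and 1 in MUT. The EV rise of IL1B was at least 7.31-fold, against a floor of 3 counts over the untreated group (edgeR adjusted p 0.00227). In WT it passed as well (edgeR adjusted p 0.00253) and in MUT it did not (0.451 in edgeR), where 1 treated library held most of the counts.

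IL11 (chromosome 19, 55364389 to 55370464, minus strand), a cytokine of the interleukin 6 family that acts on bone cells, gave 14.5, 14.4 and 14.5 CPM in untreated and 40.7, 35.3 and 39.4 CPM in treated EV. For IL11 the WT libraries held 10.4, 9.68 and 12.04 and then 28.2, 29.2 and 26.5 CPM, and the MUT libraries 18.1, 17.5 and 20.6 and then 34.0, 36.1 and 34.0 CPM. Replicates were close in every group. IL11 changed by 1.41, 1.38 and 0.89 (SE 0.0905, 0.0926 and 0.0882; edgeR adjusted p 6.9e-10, 8.4e-10 and 8.2e-08). CSF1 (chromosome 1, 109910242 to 109930993, plus strand), the growth factor of macrophages and osteoclasts, read 30.7, 31.8 and 35.0 CPM in untreated and 43.5, 44.9 and 47.6 CPM in treated EV. For CSF1 the WT values were 20.5, 21.2 and 23.0 and then 40.5, 41.3 and 36.7 CPM, and the MUT values 37.5, 27.5 and 36.6 and then 47.2, 54.1 and 55.1 CPM. WT started lowest. CSF1 changed by 0.48, 0.87 and 0.62 (edgeR adjusted p 5.5e-04, 1.1e-06 and 2.9e-05). CSF2 (chromosome 5, 132073790 to 132076171, plus strand), the granulocyte and macrophage factor, was low, at 1.58, 0.935 and 1.72 CPM in untreated and 3.86, 3.37 and 3.29 CPM in treated EV. In WT the CSF2 libraries had 0.834, 0.635 and 0.935 and then 1.95, 3.62 and 2.76 CPM. The EV and WT groups did not overlap, and CSF2 changed by 1.31 and 1.78 there (edgeR adjusted p 0.0119 and 0.00215). Without untreated EV replicate 2 the CSF2 call in EV was lost (edgeR adjusted p 0.0645). In MUT the untreated libraries ran 1.96, 0.377 and 2.63 CPM, overlapped with the treated ones, and the value of 0.69 did not pass. Without untreated MUT replicate 3 it was 1.13 and passed (edgeR adjusted p 0.0318).

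IL32 (chromosome 16, 3065297 to 3082193, plus strand), an intracellular and secreted cytokine of primates, was among the most abundant members. Its EV libraries read 227, 224 and 213 CPM untreated and 188, 138 and 148 CPM treated. For IL32 the WT libraries went from 131, 127 and 143 to 104, 109 and 117 CPM and the MUT libraries from 315, 228 and 304 to 145, 139 and 135 CPM. MUT began highest and ended near EV. IL32 changed by -0.49, -0.29 and -1.02 (SE 0.110, 0.111 and 0.111; edgeR adjusted p 0.00119, 0.0400 and 2.8e-07). The WT call of IL32 was lost without any 1 untreated WT library and without treated WT replicate 1 or 2, with edgeR adjusted p between 0.0509 and 0.144. It was also lost when genes with a mean under 50 counts were left out (edgeR adjusted p 0.0714). IL18 (chromosome 11, 112143251 to 112164118, minus strand), a further member of the interleukin 1 family, went from 292 ± 7.63 to 361 ± 32.9 CPM in EV (log2 fold change 0.30, edgeR adjusted p 0.00538) and overlapped between treatments in WT and MUT (-0.019 and 0.043, not past the threshold).

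TNF, LTB and IL6 had means under 1 CPM over all libraries. TNF (chromosome 6, 31575567 to 31578337, plus strand), the archetypal NF-kB inducer and target, gave log2 fold changes of -1.05, -1.43 and -0.99 with cytarabine (edgeR adjusted p 0.241, 0.114 and 0.0846). LTB (chromosome 6, 31580525 to 31582523, minus strand), a ligand of the noncanonical branch, held 20, 21 and 35 counts in the untreated and 8, 1 and 6 counts in the treated EV libraries, a change of -2.59 (SE 0.724, edgeR adjusted p 0.00584). In WT and MUT the LTB values of -1.52 and -1.89 did not pass, although in MUT the value passed in DESeq2 (adjusted p 0.0300) and with the authors' factors (edgeR adjusted p 0.0416). Without untreated WT replicate 1 LTB passed in WT and in MUT (edgeR adjusted p 0.0495 and 0.0415), and in MUT it also passed without untreated or treated MUT replicate 2 or treated EV replicate 2 (edgeR adjusted p 0.0285, 0.0280 and 0.0499). IL6 (chromosome 7, 22725884 to 22732003, plus strand), the cytokine of the acute phase, gave 0.77, -0.32 and 1.099, with edgeR adjusted p 0.255, 0.695 and 0.0710, and overlaps 2 genes on the opposite strand. Whether TNF and IL6 passed turned on single libraries. TNF passed in WT without untreated WT replicate 3 and in MUT without untreated MUT replicate 2 (edgeR adjusted p 0.0338 and 0.0356). IL6 passed in MUT without untreated MUT replicate 3, at 1.94 (edgeR adjusted p 0.00715).

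The chemokines did not move together. CCL4 and CCL2 were lower with cytarabine in the 3 lines, while CXCL8 and CCL20 were higher in some. CCL4 (chromosome 17, 36103590 to 36105622, plus strand), a chemokine for monocytes and T cells, gave 6.95, 4.67 and 6.70 CPM in untreated and 1.37, 1.25 and 1.58 CPM in treated EV. For CCL4 the WT libraries held 15.4, 10.7 and 14.5 and then 4.96, 5.30 and 3.82 CPM, and the MUT libraries 5.47, 2.89 and 5.54 and then 2.42, 2.11 and 1.00 CPM. WT was the highest line at both states. CCL4 changed by -2.11, -1.53 and -1.34 (SE 0.296, 0.253 and 0.286; edgeR adjusted p 8.6e-06, 5.2e-05 and 5.5e-04). CCL3 and CCL4 each have near-identical copies nearby, which makes both counts uncertain. CCL3 (chromosome 17, 36088256 to 36090170, minus strand) read 1.55, 0.503 and 1.77 CPM in untreated and 0.659, 0.670 and 0.305 CPM in treated MUT, and these groups overlapped. Its MUT value was -1.24 (SE 0.490, edgeR adjusted p 0.0383). That call was lost without untreated MUT replicate 1 or 3 or treated MUT replicate 1 or 3 (edgeR adjusted p 0.114, 0.134, 0.0506 and 0.148) and in a fit of only the MUT groups (0.0871 in edgeR). In EV and WT the CCL3 values of 0.92 and 0.17 did not pass.

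CCL2 (chromosome 17, 34255218 to 34257204, plus strand), which attracts monocytes, read 19.8, 21.6 and 23.7 CPM in untreated and 14.2, 11.5 and 16.6 CPM in treated EV. For CCL2 the WT libraries went from 13.2, 11.1 and 11.1 to 8.86, 7.30 and 7.45 CPM and the MUT libraries from 12.3, 6.73 and 14.7 to 5.18, 7.42 and 5.97 CPM. In MUT the groups overlapped, since untreated replicate 2 was low. CCL2 changed by -0.61, -0.59 and -0.87 (SE 0.195, 0.206 and 0.211; edgeR adjusted p 0.0133, 0.0241 and 0.00163). The EV call of CCL2 was lost without untreated replicate 3 or treated replicate 2 (edgeR adjusted p 0.0541 and 0.0655). The WT call was lost without untreated replicate 1 or treated replicate 2 or 3 (edgeR adjusted p 0.0969, 0.0774 and 0.0752).

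CXCL8 (chromosome 4, 73740506 to 73743717, plus strand), a chemokine for neutrophils, gave 6.66, 6.72 and 8.05 CPM in untreated and 9.05, 11.3 and 10.6 CPM in treated EV. For CXCL8 the WT libraries held 18.2, 13.7 and 18.5 and then 15.8, 16.4 and 18.1 CPM, and the MUT libraries 8.02, 5.35 and 10.7 and then 12.2, 15.3 and 14.6 CPM. WT was high without treatment and overlapped between states. CXCL8 changed by 0.53 in EV and 0.80 in MUT (edgeR adjusted p 0.0255 and 9.2e-04), and its WT value was -0.004. The EV call of CXCL8 was lost with the authors' factors and without untreated EV replicate 1 or 2 or treated EV replicate 2 or 3, with edgeR adjusted p between 0.0570 and 0.0871. CCL20 (chromosome 2, 227805739 to 227817565, plus strand), a ligand of CCR6, rose in EV from 1.17, 0.643 and 0.676 to 1.22, 1.87 and 2.14 CPM, by 1.07 on the log2 scale (edgeR adjusted p 0.0193). This CCL20 call was lost without untreated EV replicate 2 or 3 or treated EV replicate 3 (edgeR adjusted p 0.0827, 0.0740 and 0.0892). In WT and MUT its values of 0.13 and 0.70 did not pass. The MUT value of CCL20 passed without untreated MUT replicate 3, at 0.92 (edgeR adjusted p 0.0445). CXCL3 (chromosome 4, 74036589 to 74038808, minus strand), which also has close copies, gave 0.61, 1.33 and 0.74, none past the threshold. It passed in WT in a fit of only the WT groups (edgeR adjusted p 0.0356). It also passed there without untreated MUT replicate 2 (edgeR adjusted p 0.0241). CXCL10 had at most 3 counts and CXCL12 at most 5 counts in any library.

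Among the other targets, PTX3 fell and PTGS2 rose by more than the rest. PTX3 (chromosome 3, 157436789 to 157443629, plus strand), a secreted pattern-recognition protein of inflamed tissue, read 10.5, 9.87 and 9.35 CPM in untreated and 2.69, 2.93 and 2.82 CPM in treated EV. For PTX3 the WT libraries went from 10.6, 9.79 and 11.2 to 5.29, 7.08 and 4.98 CPM and the MUT libraries from 9.93, 8.18 and 11.5 to 3.21, 3.64 and 3.14 CPM. Treated WT stayed above the other treated lines. PTX3 changed by -1.81, -0.87 and -1.57 (SE 0.158, 0.146 and 0.153; edgeR adjusted p 2.4e-08, 6.3e-05 and 6.5e-08). PTX3 lies within VEPH1 on the opposite strand, which had a mean of 21.5 counts beside 132 for PTX3. SOD2 (chromosome 6, 159669057 to 159762530, minus strand), the mitochondrial superoxide dismutase, changed by -0.31, -0.19 and -0.30 (edgeR adjusted p 0.00118, 0.0292 and 0.00127), from 162 ± 4.26 to 131 ± 12.1 CPM in EV. Its WT call was lost without untreated WT replicate 2 or 3 or treated WT replicate 1 or 2 (edgeR adjusted p 0.0695, 0.114, 0.0847 and 0.0827). SOD2 shares long stretches with WTAP and ACAT2 on the opposite strand, which are expressed at 2075 and 1166 mean counts beside 2756 for SOD2.

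PTGS2 (chromosome 1, 186671791 to 186680428, minus strand), the inducible cyclooxygenase, gave 0.584, 0.584 and 0.922 CPM in untreated and 3.23, 3.12 and 2.87 CPM in treated EV. For PTGS2 the WT libraries held 1.23, 1.16 and 1.32 and then 4.96, 5.57 and 6.58 CPM, and the MUT libraries 0.351, 0.503 and 0.857 and then 2.33, 3.35 and 3.31 CPM. Every treated library exceeded every untreated one of all lines. PTGS2 changed by 2.13, 2.20 and 2.39 (SE 0.277, 0.246 and 0.282; edgeR adjusted p 3.4e-06, 5.6e-07 and 7.3e-07). CD83 (chromosome 6, 14117256 to 14136919, plus strand), a surface protein of activated antigen-presenting cells, changed by -0.27 in EV and -0.41 in MUT (edgeR adjusted p 0.0226 and 9.0e-04), with -0.13 in WT not past the threshold. The EV call of CD83 was lost without untreated EV replicate 2 or 3 or treated EV replicate 3 (edgeR adjusted p 0.0825, 0.0580 and 0.0812) and when genes with a mean under 50 counts were left out (0.0636 in edgeR). TNFAIP2 (chromosome 14, 103123442 to 103137440, plus strand), first found as a gene induced by tumour necrosis factor, rose by 0.29 in EV and 0.31 in MUT (edgeR adjusted p 0.00437 and 0.00216). Without untreated MUT replicate 2 its MUT value was 0.20 (edgeR adjusted p 0.0302). ICAM1 (chromosome 19, 10270835 to 10286616, plus strand), an adhesion receptor for leukocytes, and IER3 (chromosome 6, 30743199 to 30744555, minus strand), an early response gene, passed in no line. Their log2 fold changes were 0.31, 0.51 and -0.046 for ICAM1 and 0.030, -0.048 and 0.044 for IER3. In EV the ICAM1 value passed when genes with a mean under 50 counts were left out (edgeR adjusted p 0.0473).

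Whether the lines differed in these responses was tested as a difference between effects. Of 38 members edgeR called 0 between MUT and EV, 1 between MUT and WT and 0 between WT and EV, where 0.214%, 1.00% and 0.285% of all genes were called. Before adjustment, the number with p under 0.05 was 7, 11 and 6, and DESeq2 called 4, 6 and 1. The 1 member was IL32, whose fall was larger in MUT than in WT, with a difference of -0.73 (SE 0.157, edgeR adjusted p 0.0289). That call was lost without any 1 untreated WT or treated MUT library and without treated WT replicate 2 or 3, with edgeR adjusted p between 0.0571 and 0.0873. In a fit of only these 2 lines its edgeR adjusted p was 0.0553. Without untreated MUT replicate 1 2 members passed between MUT and EV and 5 between MUT and WT. Without untreated MUT replicate 2 they were 3, 7 and 1, and without untreated MUT replicate 3 the counts for MUT against WT and WT against EV were 3 and 1. The members DESeq2 called were NFKB2, NFKBIE, IL11 and IL32 for MUT against EV, and the same with RELB and PTX3 for MUT against WT. In each of these cases the MUT value was the lower. PTX3 fell less in WT than in EV, by 0.94 (SE 0.215), with an adjusted p of 0.0801 in edgeR over all groups, 0.0242 in a fit of only the 2 lines and 0.0189 in DESeq2. For TRAF1, NFKB1 and NFKBIA the 95% intervals of the difference between MUT and EV were -0.42 to 0.35, -0.15 to 0.28 and -0.47 to 0.13 on the log2 scale. That of IL11 was -0.80 to -0.25 (edgeR adjusted p 0.0799), and it passed when genes with a mean under 50 counts were left out (edgeR adjusted p 0.0442).

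The levels of some members differed between lines whatever the treatment. Each construct was present in a single line, and the replicates measure the spread within that line. An effect of the construct and other differences between the lines cannot be told apart. Of 38 members, 12 passed in edgeR for untreated MUT against EV, 8 higher and 4 lower, where 19.9% of all genes were called (9.88% higher, 10.0% lower). WT against EV gave 12, with 4 higher and 8 lower, where 11.7% were called (4.30% higher, 7.36% lower). MUT against WT gave 18, with 13 higher and 5 lower, where 21.2% were called (11.7% higher, 9.54% lower). In treated cells 4 passed for MUT against EV, 2 in each direction, where 14.0% of all genes were called (6.85% higher, 7.13% lower). Treated WT against EV gave 12, 6 in each direction, where 16.5% were called (7.41% higher, 9.12% lower). Treated MUT against WT gave 11, with 8 higher and 3 lower, where 19.8% were called (10.4% higher, 9.48% lower). These comparisons share groups with each other. The untreated MUT against EV count was 6, 5 and 4 without untreated EV replicate 1, 2 or 3, and the treated counts of MUT against EV and of MUT against WT rose to 8 and 17 without untreated MUT replicate 3. Without untreated MUT replicate 2 the treated MUT against EV count was 7.

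ICAM1 was lowest in WT and gave the largest difference between WT and EV among the members called. It read 6.84, 7.48 and 8.42 CPM in untreated EV, 0.932, 0.635 and 0.935 CPM in WT and 4.91, 4.78 and 5.83 CPM in MUT, and 9.10, 10.2 and 8.85, 1.02, 1.51 and 1.06 and 5.49, 4.74 and 4.79 CPM when treated. The WT libraries lay below all others, and MUT lay below EV. WT differed from EV by -3.17 untreated and -2.97 treated (SE 0.195 and 0.182; edgeR adjusted p 1.8e-09 and 2.0e-09). MUT differed from EV in ICAM1 by -0.55 untreated and -0.90 treated (edgeR adjusted p 0.0198 and 6.6e-04). The untreated one of these was lost without untreated EV replicate 2 or 3 or untreated MUT replicate 1 or 2 (edgeR adjusted p 0.0515, 0.0972, 0.0533 and 0.0620). The summed level of 5 epithelial markers, mostly KRT8 and KRT18, was also lowest in WT, at 468 to 546 CPM against 643 to 983 CPM in EV and MUT, and its part in the ICAM1 difference was not tested.

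CCL2 was highest in EV. Untreated MUT and WT differed from EV in CCL2 by -0.94 and -0.87 and treated ones by -1.20 and -0.85 (edgeR adjusted p 0.00249, 0.00571, 7.1e-04 and 0.00736). In a fit of only the untreated EV and MUT groups the first of these had an edgeR adjusted p of 0.0588. CCL4 and CXCL8 were highest in WT. Against EV, WT differed by 1.15 untreated and 1.73 treated in CCL4 (edgeR adjusted p 0.00436 and 4.9e-04) and by 1.24 and 0.70 in CXCL8 (edgeR adjusted p 1.2e-04 and 0.00907). Without treatment MUT lay below WT in NFKBIZ and PTGS2, by -1.23 and -1.12 (edgeR adjusted p 1.2e-04 and 0.0131), and the PTGS2 call was lost without untreated MUT replicate 1 (edgeR adjusted p 0.0625).

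TNF was highest in MUT. It read 0.409, 0.175 and 0.246 CPM in untreated EV, 0.294, 0.476 and 0.0550 CPM in WT and 1.76, 0.818 and 1.71 CPM in MUT, and 0.0489, 0.0624 and 0.257, 0.0928, 0.108 and 0.0967 and 0.747, 0.670 and 0.741 CPM when treated. All 6 MUT libraries exceeded the 12 others, at 13 to 35 counts per library against 1 to 9. MUT differed from EV by 2.35 untreated and 2.40 treated (SE 0.551 and 0.619; edgeR adjusted p 0.00530 and 0.0135). The treated call was lost without treated EV replicate 1 or 2 (edgeR adjusted p 0.0623 and 0.0541). IL32, IL11 and CSF1 were lowest in WT. Without treatment WT differed from EV by -0.73 in IL32, -0.43 in IL11 and -0.59 in CSF1 (edgeR adjusted p 1.8e-04, 0.00533 and 7.1e-04). MUT differed from WT by 1.08, 0.81 and 0.65 in these genes (edgeR adjusted p 1.7e-06, 8.3e-06 and 1.9e-04). In treated cells IL6 was higher in MUT than in WT, at 1.19, 1.24 and 0.828 against 0.186, 0.270 and 0.290 CPM, a difference of 2.10 (SE 0.545, edgeR adjusted p 0.00971). It was lost without treated WT replicate 1 (edgeR adjusted p 0.0539). CD83 was higher in MUT than in EV, by 0.52 untreated and 0.38 treated (edgeR adjusted p 6.9e-04 and 0.00943), the treated call being lost without treated MUT replicate 1 (edgeR adjusted p 0.0530).

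**Figure D4:**
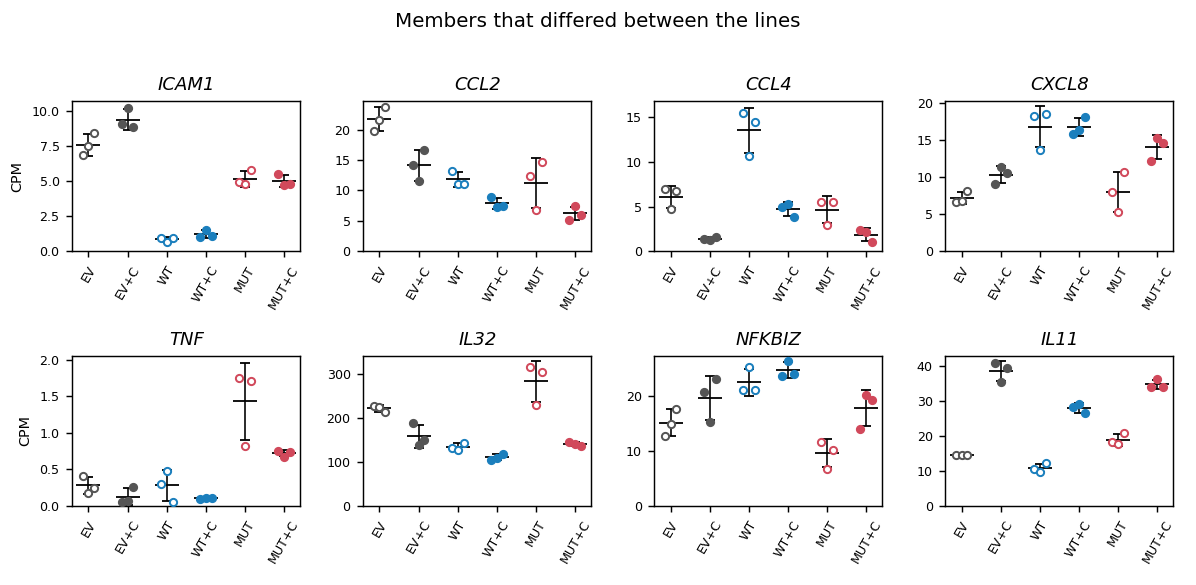
CPM in each library (points) with the mean ± SD of the 3 replicates (bars) for 8 members whose level differed between EV, WT and MUT, untreated or with cytarabine (+C). ICAM1 is lowest in the 6 WT libraries, CCL4 highest in untreated WT and TNF highest in the 6 MUT libraries, where untreated replicate 2 is the lowest untreated one.

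Among the subunits and inhibitors, untreated NFKBIA was higher in MUT by 0.32 against EV and 0.39 against WT (edgeR adjusted p 0.0223 and 0.00551), and the former was lost without untreated EV replicate 1 or 3 (edgeR adjusted p 0.0694 and 0.0929). RELB and NFKBIE were higher in untreated MUT than in WT, by 0.42 and 0.63 (edgeR adjusted p 0.00262 and 2.0e-04). In a fit of only those groups the edgeR adjusted p of RELB was 0.0525. In treated cells NFKB2 was -0.17 in MUT relative to EV and -0.15 relative to WT, with adjusted p of 0.0692 and 0.0852 in edgeR and 0.0146 and 0.0248 in DESeq2. NFKB1 lay at 46.7 to 54.5 CPM in treated EV, 56.4 to 60.6 CPM in treated WT and 54.1 to 60.8 CPM in treated MUT. The WT and MUT ranges overlapped, and only that of MUT reached into the EV range.

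TNFAIP2 was lower in WT than in EV, by -0.37 untreated and -0.56 treated (edgeR adjusted p 0.00439 and 6.5e-05), and treated MUT was above treated WT by 0.34 (edgeR adjusted p 0.00447). Treated WT was above treated EV in TRAF1, PTX3 and PTGS2, by 0.58, 1.04 and 0.89 (edgeR adjusted p 0.00480, 1.8e-04 and 0.00999), and the PTGS2 call was lost without treated WT replicate 3 (edgeR adjusted p 0.0599). Treated MUT was below treated WT in PTX3, PTGS2 and CCL4, by -0.79, -0.93 and -1.35 (edgeR adjusted p 0.00121, 0.00615 and 0.00215). In untreated cells MUT was below WT in CXCL8 and CCL4 by -1.06 and -1.54 (edgeR adjusted p 3.7e-04 and 2.9e-04), and above it in ICAM1 by 2.62 (edgeR adjusted p 2.3e-08).

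NFKBIE and TRAF2 were lower in untreated WT than in EV, by -0.37 and -0.31 (edgeR adjusted p 0.0207 and 0.0215). The NFKBIE call was lost without untreated EV or WT replicate 2 or 3, with edgeR adjusted p between 0.0615 and 0.110. The TRAF2 call was lost without any 1 of the 6 untreated EV and WT libraries, with edgeR adjusted p between 0.0511 and 0.0931. TNIP1 and TRAF2 were higher in untreated MUT than in WT, by 0.35 and 0.38 (edgeR adjusted p 0.00556 and 0.00294). IER3 read 91.0, 92.9 and 106 CPM in untreated EV, 143, 157 and 141 CPM in WT and 118, 55.7 and 122 CPM in MUT. The values of WT against EV and MUT against WT were 0.60 and -0.58. IL18 was higher in untreated MUT than in EV and WT, by 0.26 and 0.24, and TNFAIP2 and TNIP1 differed between untreated MUT and EV by -0.24 and 0.25. These calls lay near the threshold, with edgeR adjusted p of 0.0490, 0.0392, 0.0319, 0.0496, 0.0386 and 0.0457, and each was lost when certain single libraries were left out. Without untreated EV replicate 3 the edgeR adjusted p were 0.0774 for IER3 in WT against EV and 0.111, 0.113 and 0.141 for IL18, TNFAIP2 and TNIP1 in MUT against EV. Without untreated WT replicate 1 they were 0.0784 for IER3 and 0.163 for IL18 in MUT against WT. IER3 was also lost in DESeq2 (adjusted p 0.0728 and 0.0752).

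In treated cells IL18 was lower in WT than in EV and higher in MUT than in WT, by -0.29 and 0.30 (edgeR adjusted p 0.0200 and 0.0154). Without treated WT replicate 2 neither passed (edgeR adjusted p 0.111 and 0.0875), nor did they without treated WT replicate 1 (edgeR adjusted p 0.0621 and 0.0501). The first was also lost without treated EV replicate 1 and the other without treated MUT replicate 1 (edgeR adjusted p 0.103 and 0.0900). In fits of only the groups compared, CD83 and TNF were the members still called for untreated MUT against EV. For untreated MUT against WT these were NFKBIA, NFKBIE, NFKBIZ, ICAM1, IL11, IL32, CSF1, CXCL8 and CCL4.

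Levels of different genes were set beside each other per length of annotated exon. That length was 15679 bases for NFKB1 and 3394 bases for NFKBIA. Single transcripts can be shorter than this joined length, and which of them these cells make was not tested. The order of the members depends on these lengths and is not a measured order of transcript number. In untreated EV the most abundant members on this scale, mean CPM per kb, were IL18 at 112 ± 2.93 (SD, n = 3), IER3 at 71.7 ± 6.24 and IL32 at 68.9 ± 2.27, and the last pair do not differ beyond their spread. NFKBIB (29.8 ± 1.46), NFKB2 (29.7 ± 0.599) and RELA (27.1 ± 0.471) followed, the first pair again within their spread. NFKBIA stood at 12.3 ± 0.596 and NFKB1 at 6.78 ± 0.258. Of the members that rose in 3 lines, CSF1 at 6.21 ± 0.430 and IL11 at 5.40 ± 0.0278 were mid-range, and PTGS2, at 0.127 ± 0.0356, and IL1A, at 0.109 ± 0.0692, were near the bottom. IL1B was at 0 counts in that group.

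Other genes of the pathway were counted in lists that hold no member. Their counts stand beside 26.1%, 26.3% and 30.4% of all genes called higher with cytarabine in EV, WT and MUT and 22.9%, 22.7% and 25.9% called lower. Of 16 receptor genes tested, 9, 8 and 7 were higher with cytarabine in EV, WT and MUT and 2, 2 and 1 lower, with medians of 0.37, 0.40 and 0.39. CXCR2, a receptor for CXCL8, had the largest mean rise, with 0.0584 to 0.184, 0 to 0.165 and 0 to 0.0501 CPM untreated and 0.147 to 0.874, 1.02 to 1.51 and 0.436 to 0.862 CPM treated. At these counts no fold is given for CXCR2. TNFRSF12A, the receptor for the cytokine TWEAK, changed by -0.56, -0.70 and -0.65, from 380.5 ± 10.3 to 258 ± 32.2 CPM in EV. Of 24 signal transducers 3, 6 and 5 were higher and 8, 7 and 9 lower, with the adaptor TRAF5 changing by 0.41, 0.44 and 0.73 and the kinase IKBKE by -0.80, -0.57 and -1.33. Of 13 further inhibitors 2, 1 and 3 were higher and 2, 2 and 3 lower. The deubiquitinase CYLD changed by 0.55, 0.54 and 0.32, and the RNase ZC3H12A gave -0.51, -0.83 and -0.68, of which WT and MUT passed.

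Of 22 further targets 5, 7 and 9 were higher and 7, 4 and 5 lower. The acute-phase gene SAA2, which has a near-identical copy in SAA1, changed by 1.84, 1.94 and 1.62. Its means in EV, WT and MUT were 0.354, 0.205 and 0.248 CPM untreated and 1.29, 0.820 and 0.771 CPM treated. At these low levels the size of the SAA2 change is uncertain. The gelatinase MMP9 changed by -1.16, -0.89 and -0.77, from 17.3 ± 0.738 to 7.65 ± 1.08 CPM in EV. Of 12 genes that link DNA damage to NF-kB, 4 of them also among the transducers, 3, 3 and 4 were higher and 3, 2 and 4 lower. TMEM173, the adaptor STING, changed by 0.86, 0.70 and 0.93 and PARP1, which binds DNA breaks, by -0.58, -0.39 and -0.46. No test here compares a list with other genes.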

How the data were processed

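RNA of 18 U2OS libraries was extracted with Direct-zol and made into libraries with NEBNext Ultra, per the labels' protocols. Per the submitters' processing notes, CASAVA and STAR 2.6.1d were used with the hg38 build. The counting tool and its treatment of strand and of reads with several matches are not given in the sources used here, so reads of overlapping genes and close copies may be shared. The authors deposited estimated counts per gene symbol, of which 70.4% are whole, for 25296 genes. They also deposited a normalized signal for 19591 genes, which equals 1 plus a library factor times the count (largest relative deviation 7.29e-06), and only its factors were used here, as an alternative scaling.

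Estimated counts were rounded to whole numbers, filtered with filterByExpr and scaled with TMM in edgeR 4.0.16 (R 4.3.3). A quasi-likelihood model of all 18 libraries had 1 mean per group (6 groups), and 12 contrasts were tested. P-values were adjusted over 18226 genes by Benjamini-Hochberg at a threshold of 0.05, SE is the absolute log2 fold change over the square root of F, and intervals are at 95%. Log2 CPM used a prior count of 2, and the floor was 3 counts over a group, for counting error only. The test was tried on simulated counts. The members, roles and further lists were chosen with earlier results of these data known. Every member could be named. By the rule for named genes, members called in any contrast with a mean of at least 1 CPM are given first, some of their calls between lines by count only, and other lists by counts with the largest riser and faller called in at least 2 lines. Groups come from the sample titles. Replicate pairs differed by more than sampling noise (chi-square per degree of freedom 2.46 to 48.2). Coordinates are those of the authors' table, and all 40 members overlap their GENCODE 44 position. Alternatives were DESeq2 1.42.0, the authors' factors, no filter, a mean of at least 50 counts, only the groups compared, a replicate block and leaving out each library. Counts of members called in 3 lines under these were added after seeing the data. Some marker genes are not reported here by name.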

Additional observations from a re-analysis of the deposited data

Results flagged for a closer look

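IL32 is listed here because its response to cytarabine differed between lines in a direct test. Its log2 fold change was -1.02 in MUT and -0.29 in WT, and the difference was -0.73 (SE 0.157, adjusted p 0.0289 in edgeR's quasi-likelihood test with Benjamini-Hochberg adjustment). All 3 treated MUT libraries, at 145, 139 and 135 CPM, lay below the untreated ones at 315, 228 and 304 CPM. Untreated MUT replicate 2 was the lowest of these, and without it the difference was -0.90 (edgeR adjusted p 0.00301). The call was lost in 8 of the 18 fits that left out 1 library. DESeq2 gave -0.78 (adjusted p 2.7e-04).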

How the results depend on the processing

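No called value changed sign under the alternatives. The count of members with a different cytarabine effect in MUT and EV was 1 when genes with a mean under 50 counts were left out, 4 in DESeq2 and 0 to 3 when 1 library was left out, against 0. For MUT and WT it was 5, 6 and 0 to 7 in these settings and 0 when only the groups compared were fitted, against 1. For WT and EV it was 1 in DESeq2, 1 with only the groups compared and 0 to 1 when 1 library was left out, against 0. With only the groups compared, 2 members differed between untreated MUT and EV (12 in all groups), 9 between untreated MUT and WT (18) and 17 between treated MUT and WT (11). Leaving out 1 library gave 4 to 12 for untreated MUT against EV, 3 to 8 for treated MUT against EV and 9 to 17 for treated MUT against WT. Members higher in 3 lines were 2 rather than 4 at a mean of at least 50 counts, where IL1A and PTGS2 are not tested. Apart from the last, the cause of these shifts was not tested. The counts of cytarabine effects were 24 to 30 in EV, 19 to 24 in WT and 26 to 30 in MUT when 1 library was left out. With a replicate block they were 29, 22 and 27, the differences 0, 1 and 0, the untreated lines 12, 12 and 17 and the treated lines 4, 13 and 12. In no comparison did every same-numbered pair of replicates deviate together with a correlation over 0.1. Between 0 and 3 of 3 replicate numbers correlated best with themselves. All 3 did so in treated MUT against EV. Same-numbered pairs there correlated at 0.211, 0.0858 and 0.436, and other pairs at 0.0109 at most. Whether the numbers pair the samples is not settled by these values. Depth limits TNF, LTB, IL1B, IL6, CCL3 and CXCL3, which held at most 35 counts in any library. It also limits the size of the IL1A rise, since IL1A held at most 11 counts in any untreated library.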
